A study of Mus musculus with 120 samples.

Results

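The axon guidance ligands and receptors are the genes whose symbols place them in the ephrin, Eph receptor, semaphorin, plexin, neuropilin, Slit, Robo, netrin or Unc5 families. Chosen by symbol, they numbered 69 of the 23154 genes in the deposited count tables, and 68 of the 69 are protein-coding. The remaining one, Plxna4os1, is an antisense transcript that lies within Plxna4. The set held 5 ephrin-A and 3 ephrin-B ligands, 9 EphA and 5 EphB receptors, 7 class 3 and 13 other semaphorins, 10 plexin symbols, 2 neuropilins, 3 Slits, 4 Robos, 4 netrins and 4 Unc5 receptors.

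These families were named for their work in the nervous system, where membrane-bound or secreted ligands attract or repel the tips of growing axons. Ephrins sit in the membrane of one cell and bind Eph receptor kinases on its neighbour. Semaphorins act through plexins, and most of the secreted class 3 semaphorins also use a neuropilin as co-receptor, whereas Sema3e can signal through plexin D1 without one. Slits repel through Robo receptors, and netrins attract through Dcc and repel through Unc5 receptors. The same molecules also sort cells at tissue borders, guide migrating mesoderm and shape blood vessels in the early embryo.

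RNA counts came from mouse embryos of the ICR stock and from cells of the E14/TG2A embryonic stem cell line. The embryo groups were the extra-embryonic part (ExE) and the epiblast (Epi) of embryos taken at 6.5 days post coitum (E6.5), ExE and regions P and A at 7.0 days (E7.0), and ExE and regions AM, P and A at 7.5 days (E7.5). Each of these 9 groups had 2 libraries. The cell groups were KO, in which an enhancer called Enh9E had been deleted with CRISPR-Cas9, and unedited WT, each taken as stem cells (D0) and as neural progenitors by label on day 8 (D8). There were 3 libraries of KO and 2 of WT at either time. The labels give neither the place nor the target gene of Enh9E and do not say whether the KO line is 1 clone, so the deletion was not checked in these counts. Nor do they tie replicates to separate embryos or cultures. The p-values therefore measure the spread between these libraries, which may be technical. Levels are CPM, counts scaled to a common library size, after scaling by the trimmed mean of M values, fold changes are log2 values given ± their standard error, and a gene is called at an adjusted p under 0.05.

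Totals ran from 5145033 to 17138732 counts in embryo libraries and from 5962176 to 13182032 in cell libraries, and the guidance genes took 0.0216 to 0.0794% of the embryo counts and 0.124 to 0.286% of the cell counts. Markers followed most labels. The 6 epiblast markers summed to 596 and 736 CPM in E6.5 ExE and to 3766 and 4348 CPM in Epi, while in the AM region they reached no more than 308 and 547 CPM. The 6 visceral endoderm markers, which label an outer layer that covers both parts, were uneven at E7.5, with 8200 and 7330 CPM in ExE, 959 and 5692 CPM in AM, 394 and 4864 CPM in P and 4.25 and 399 CPM in A. The second E7.0 ExE library had the lowest total and stood apart from the first in several guidance genes, as given below. In bulk tissue, fewer cells of a type and less RNA per cell cannot be told apart.

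The first comparison asked which guidance genes differ between the extra-embryonic part and the embryonic part at each stage. The ephrin-A ligand Efna5, the semaphorin receptor Plxnb1 and the Slit receptor Robo1 fell in ExE at all 3 stages, whose libraries are not shared, and no guidance gene rose at all 3. Of the 60 guidance genes tested at E6.5, 3 rose and 5 fell in ExE, against 3.69% and 5.24% of all 14403 genes tested (8.93% in either direction). At E7.0, 4 rose and 4 fell, against 10% and 8.14% of all genes. At E7.5, 2 rose and 16 fell, against 13.4% and 7.91% of all genes (21.3% in either direction), and the median log2 fold change was -0.58 over the 60 guidance genes and -0.02 over all genes.

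Efna5, a ligand held to the membrane by a lipid anchor, stood at 0.72 and 0.987 CPM in E6.5 ExE and at 50.1 and 32.4 CPM in Epi. At E7.0 it stood at 5.68 and 7.20 CPM in ExE, against 38.8 and 48.7 CPM in P and 62.8 and 96.5 CPM in A. At E7.5 it had 9.07 and 5.44 CPM in ExE, against 41.7 and 50.8 CPM in AM, 51.4 and 34.8 CPM in P and 59.3 and 50.5 CPM in A. No ExE library overlapped an embryonic one at any stage. The log2 fold change was -5.61 ± 0.47 at E6.5 (adjusted p = 5.12e-06), -3.21 ± 0.37 at E7.0 (adjusted p = 2.86e-05) and -2.72 ± 0.34 at E7.5 (adjusted p = 6.26e-05). It was also the guidance gene called at each stage whichever single library was left out.

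The transmembrane ephrins, ligands of EphB receptors, ran the other way at the earlier stages. Efnb2 stood at 46.1 and 31.3 CPM in E6.5 ExE, against 3.65 and 6.84 CPM in Epi, a rise of 2.88 ± 0.54 (adjusted p = 0.0028). Efnb1 stood at 22.3 and 46.2 CPM in E6.5 ExE, against 3.08 and 12 CPM in Epi, a rise of 2.18 ± 0.62 (adjusted p = 0.0364). At E7.0 Efnb1 had 12.1 and 18.2 CPM in ExE, against 1.67 and 2.03 CPM in P and 0.609 and 1.98 CPM in A, a rise of 3.32 ± 0.53 (adjusted p = 0.000544). ExE libraries lay above all embryonic libraries in each of these cases, and at E7.5 Efnb1 overlapped between the parts and did not pass (1.25 ± 0.47, adjusted p = 0.066). The E6.5 rise of Efnb1 did not pass without the first Epi library (1.51, adjusted p = 0.331) or without either ExE library, and that of Efnb2 did not pass without the first Epi library (2.50, adjusted p = 0.0743). Efna1, a ligand of EphA2, rose at E7.0 by 1.47 ± 0.42 (adjusted p = 0.0227), and it did not pass without 3 of the 6 libraries, the lowest value coming without the first ExE library (1.0, adjusted p = 0.147).

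**Figure D1:**
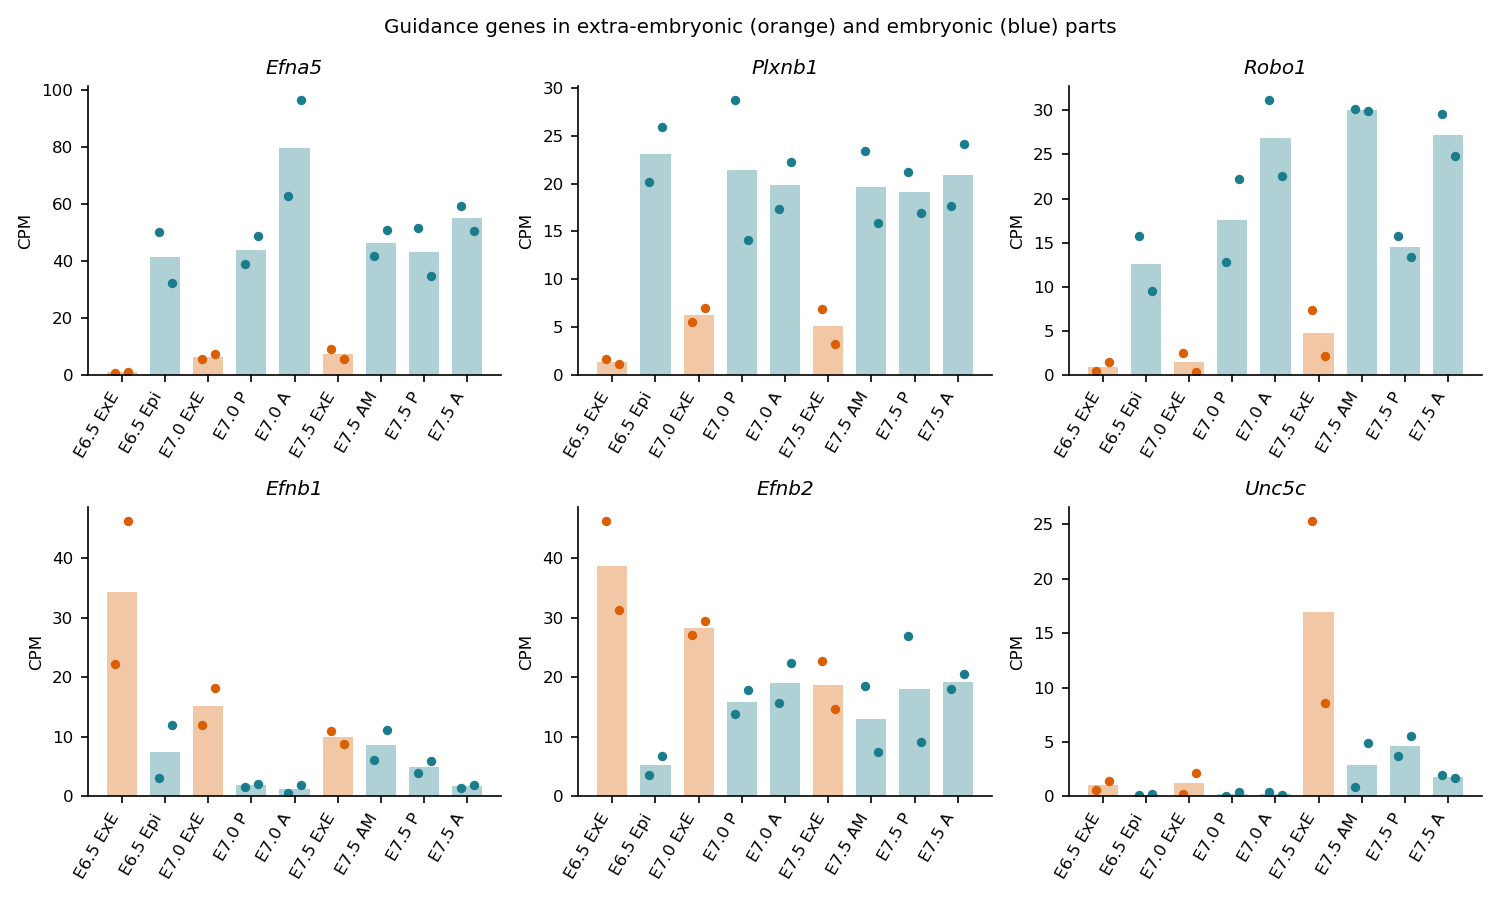
Level in CPM (y axis, linear from 0) of 6 guidance genes in each embryo group (x axis, stages in order, ExE left of the embryonic groups of its stage); bars are means of 2 libraries and points are the libraries. Efna5, Plxnb1 and Robo1 were lower in ExE than in every embryonic group of the same stage, Efnb1 and Efnb2 were higher in ExE at E6.5, and Unc5c was highest in E7.5 ExE.

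Among semaphorins and their receptors, most calls were falls in ExE. Plxnb1, the receptor of Sema4d, stood at 1.62 and 1.13 CPM in E6.5 ExE, against 20.2 and 25.9 CPM in Epi, a fall of 4.03 ± 0.51 on the log2 scale (adjusted p = 0.000114). At E7.0 it had 5.52 and 7.02 CPM in ExE, against 28.8 and 14.1 CPM in P and 17.4 and 22.3 CPM in A (-1.73 ± 0.41, adjusted p = 0.00876). At E7.5 it had 6.92 and 3.25 CPM in ExE and between 15.9 and 24.1 CPM in the 6 embryonic libraries (-1.96 ± 0.40, adjusted p = 0.00279). The Plxnb1 call was lost at E7.0 under total counts and in the fit of the compared groups alone (adjusted p up to 0.0563), and at E7.5 without the second ExE library (adjusted p = 0.0896). Sema6d, a transmembrane semaphorin that binds plexin A1, had 0.875 and 0 CPM in E7.0 ExE, against 4.43 and 13.2 CPM in P and 5.10 and 11.6 CPM in A (-3.90 ± 0.88, adjusted p = 0.00602). Its 0.318 and 0.573 CPM in E7.5 ExE lay below the 13.4 and 18.8 CPM in AM, 9.41 and 6.30 CPM in P and 3.90 and 4.01 CPM in A (-4.14 ± 0.88, adjusted p = 0.00357). Sema5b fell at E6.5 (-4.57 ± 1.01) and E7.5 (-3.50 ± 0.83), as did Sema6a (-1.84 ± 0.48 and -1.41 ± 0.42). Sema4c had no count in E7.5 ExE and at most 1.54 CPM in the embryonic libraries. With the floor set at 3 counts over the ExE group, it was at least 7.34-fold lower. The Sema4c call was kept in 3 of the 8 fits that left out 1 library and was lost without either ExE library. At E6.5 the one semaphorin that rose was Sema4g, with 5.76 and 6.48 CPM in ExE, against 0.571 and 0.892 CPM in Epi (3.04 ± 0.72, adjusted p = 0.0138). Neither Sema4g nor Sema6a passed at E6.5 in any of the 4 fits that left out 1 library (adjusted p up to 0.174 for Sema4g and 0.163 for Sema6a).

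The rises of Nrp2 and Sema4b at E7.0 did not pass without the library that stood apart. Nrp2, the co-receptor of Sema3f, had 5.52 and 39.1 CPM in the E7.0 ExE libraries, against 1.5 and 3.55 CPM in P and 0.228 and 1.98 CPM in A (3.81 ± 0.70, adjusted p = 0.00172). Sema4b had 19.2 and 56.7 CPM in ExE, against 8.74 and 4.57 CPM in P and 18.9 and 7.23 CPM in A (2.0 ± 0.44, adjusted p = 0.00559). In both, the second ExE library was the high one. Without it, Nrp2 stood at 1.82 and Sema4b at 1.03, and neither passed. The number of calls at E7.0 moved with the ExE library left out, over the guidance genes and over all genes.

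Slit and netrin receptors split between the parts. Robo1 stood at 0.45 and 1.41 CPM in E6.5 ExE, against 15.8 and 9.51 CPM in Epi (-3.84 ± 0.73, adjusted p = 0.00297). At E7.0 it had 2.46 and 0.36 CPM in ExE, against 12.8 and 22.2 CPM in P and 31.2 and 22.5 CPM in A (-3.73 ± 0.64, adjusted p = 0.000988). At E7.5 it had 7.32 and 2.10 CPM in ExE and at least 13.4 CPM in every embryonic library (-2.27 ± 0.56, adjusted p = 0.00859). The Robo1 call was lost at E6.5 without the first ExE library (-3.11, adjusted p = 0.09) and at E7.5 without the second (-1.64, adjusted p = 0.172). Both guidance genes that rose at E7.5 were receptors of netrin repulsion. Unc5c had 25.3 and 8.59 CPM in ExE, against 0.823 and 4.89 CPM in AM, 3.71 and 5.51 CPM in P and 1.92 and 1.71 CPM in A (2.55 ± 0.70, adjusted p = 0.016). Unc5b had 30.5 and 20.8 CPM in ExE, against 7.14 and 11.8 CPM in AM, 9.41 and 11.4 CPM in P and 13.9 and 14.4 CPM in A (1.20 ± 0.26, adjusted p = 0.00428). Their ligand Ntn1 fell, with 1.19 and 1.91 CPM in ExE, against 7.48 and 3.03 CPM in AM, 26.8 and 11.9 CPM in P and 4.76 and 5.81 CPM in A (-2.39 ± 0.59, adjusted p = 0.00905). Without the first ExE library Unc5c (1.57, adjusted p = 0.303), Unc5b (0.90, adjusted p = 0.0848) and Ntn1 (-2.09, adjusted p = 0.0942) did not pass.

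At E7.5, 3 of 7 tested EphA receptors and none of 5 EphB receptors fell in ExE, and differences between the stages were not tested. Epha4, which binds both ephrin classes, had 15.7 and 9.16 CPM in ExE, against 52.4 and 43.9 CPM in AM, 103 and 54.1 CPM in P and 26.4 and 32.9 CPM in A (-1.95 ± 0.48, adjusted p = 0.00873). Epha1 (-2.99 ± 0.81) and Epha7 (-3.23 ± 0.92) fell as well. Epha1 and Epha7 lost their calls when either ExE library was left out, and Epha4 lost its call without the second. Over all alternatives Epha1 ran from -3.74 to -2.285, Epha7 from -4.087 to -2.719 and Epha4 from -2.395 to -1.614. No Eph receptor passed at E6.5 or E7.0 in the main edgeR fit, which had a low-count filter. DESeq2 called Epha1 lower in ExE at both stages (-2.33, adjusted p = 0.0199 and -1.85, adjusted p = 0.0316). So did edgeR without a filter (-2.36, adjusted p = 2.5e-05 and -1.87, adjusted p = 0.00036). That fit also called Epha2 lower (-1.70, adjusted p = 0.0325) and Epha5 higher (3.37, adjusted p = 0.0292) at E7.0. The fit of the compared groups alone called Epha1 and Epha4 lower at E6.5. The other falls at E7.5 were Robo3, Slit2, Plxna2, Plxna3 and Efna2, with log2 fold changes from -4.51 to -1.07. Each lost its call without the second ExE library. Plxna3 and Efna2 were also not called under total counts or without a filter, nor Plxna3 in the fit of the compared groups alone. Over all alternatives Plxna2 ran from -1.442 to -0.78, Plxna3 from -2.115 to -0.957 and Efna2 from -1.835 to -1.324. Leaving out either ExE library lowered the number of calls at E7.5, over the guidance genes and over all genes. A further list of partners and effectors held surface molecules as well as carriers of guidance signals inside the cell. Of 46 tested, 1 rose and 6 fell at E6.5, 4 and 7 at E7.0, and 2 and 7 at E7.5. Crmp1, a mediator of semaphorin signals, fell at each stage (-5.38 ± 0.53, -4.49 ± 0.48 and -3.96 ± 0.45), and Adam10, a protease that sheds ephrins, rose at each (1.68 ± 0.42, 1.40 ± 0.34 and 1.05 ± 0.31).

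The next comparisons asked whether guidance genes mark the regions of the embryonic part. In the main edgeR fit none of the 60 passed between P and A at E7.0 (0.00694% of all genes called). Nor did any pass between P and A at E7.5 (0.236%, of which 0.0347% lower). The same held between AM and A (1.57%, of which 1.15% higher) and between AM and P (0.111%). At an unadjusted p under 0.05 there were 7, 6, 5 and 5 of them in that order, and DESeq2 called 0, 1, 3 and 0. The values below describe the libraries.

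The EphA receptors Epha2 and Epha1 were higher in both P libraries than in both A libraries at E7.0. Epha2, a receptor of ephrin-A1, had 18.5 and 12.7 CPM in P and 2.36 and 1.84 CPM in A (2.88 ± 0.79, adjusted p = 1). Epha1 had 32.1 and 19.7 CPM in P and 3.88 and 8.22 CPM in A (2.12 ± 0.85, adjusted p = 1). At E7.5 Epha2 had 6.39 and 7.35 CPM in P and 0.304 and 3.50 CPM in A (1.90 ± 0.77, adjusted p = 0.542), and it passed only when the second A library was left out (4.41, adjusted p = 0.034). The P and A libraries did not overlap for Epha2 at either stage. Epha1 at E7.5 had 34.2 and 92.6 CPM in P and 6.53 and 51.6 CPM in A, so its groups overlapped there. Ntn1, the secreted netrin, had 26.8 and 11.9 CPM in E7.5 P, against 4.76 and 5.81 CPM in A (1.88 ± 0.62, adjusted p = 0.32) and 7.48 and 3.03 CPM in AM. Plxna2, a receptor of Sema6a and of class 3 semaphorins, had 47.0 and 36.7 CPM in P and 10.9 and 16.0 CPM in A (1.64 ± 0.43, adjusted p = 0.14), and DESeq2 called this difference (adjusted p = 0.0274).

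Efnb1, Nrp1 and Plxna2 had higher values in AM than in A. Nrp1, the co-receptor of Sema3a and of the vascular growth factor VEGF-A, had 73.7 and 78.0 CPM in AM, against 15.3 and 15 CPM in A, 2.32 ± 0.61 on the log2 scale (adjusted p = 0.069), and 20.4 and 23.6 CPM in P. Efnb1 had 6.11 and 11.1 CPM in AM and 1.47 and 1.96 CPM in A (2.33 ± 0.64, adjusted p = 0.0856). Plxna2 had 33.7 and 49.3 CPM in AM and 10.9 and 16.0 CPM in A (1.63 ± 0.43, adjusted p = 0.0707). AM lay above A in both libraries for these 3 genes, and DESeq2 called all 3 (adjusted p from 0.00976 to 0.0153). Sema6a was lower in both AM libraries, at 9.95 and 12.9 CPM, than in P, at 36.0 and 27.8 CPM (-1.48 ± 0.47, adjusted p = 0.425). Epha1 had 9.54 and 18.4 CPM in AM and 34.2 and 92.6 CPM in P (-2.18 ± 0.83, adjusted p = 0.641). The visceral endoderm markers also differed between these libraries, with the values given above, and their part in the regional differences was not tested. Of the 46 partners, Flrt3, a ligand of Unc5 receptors, rose in AM over A (2.90 ± 0.49, adjusted p = 0.00555), and Crmp1 fell in AM against A (-2.99 ± 0.45) and against P (-2.63 ± 0.44).

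**Figure D2:**
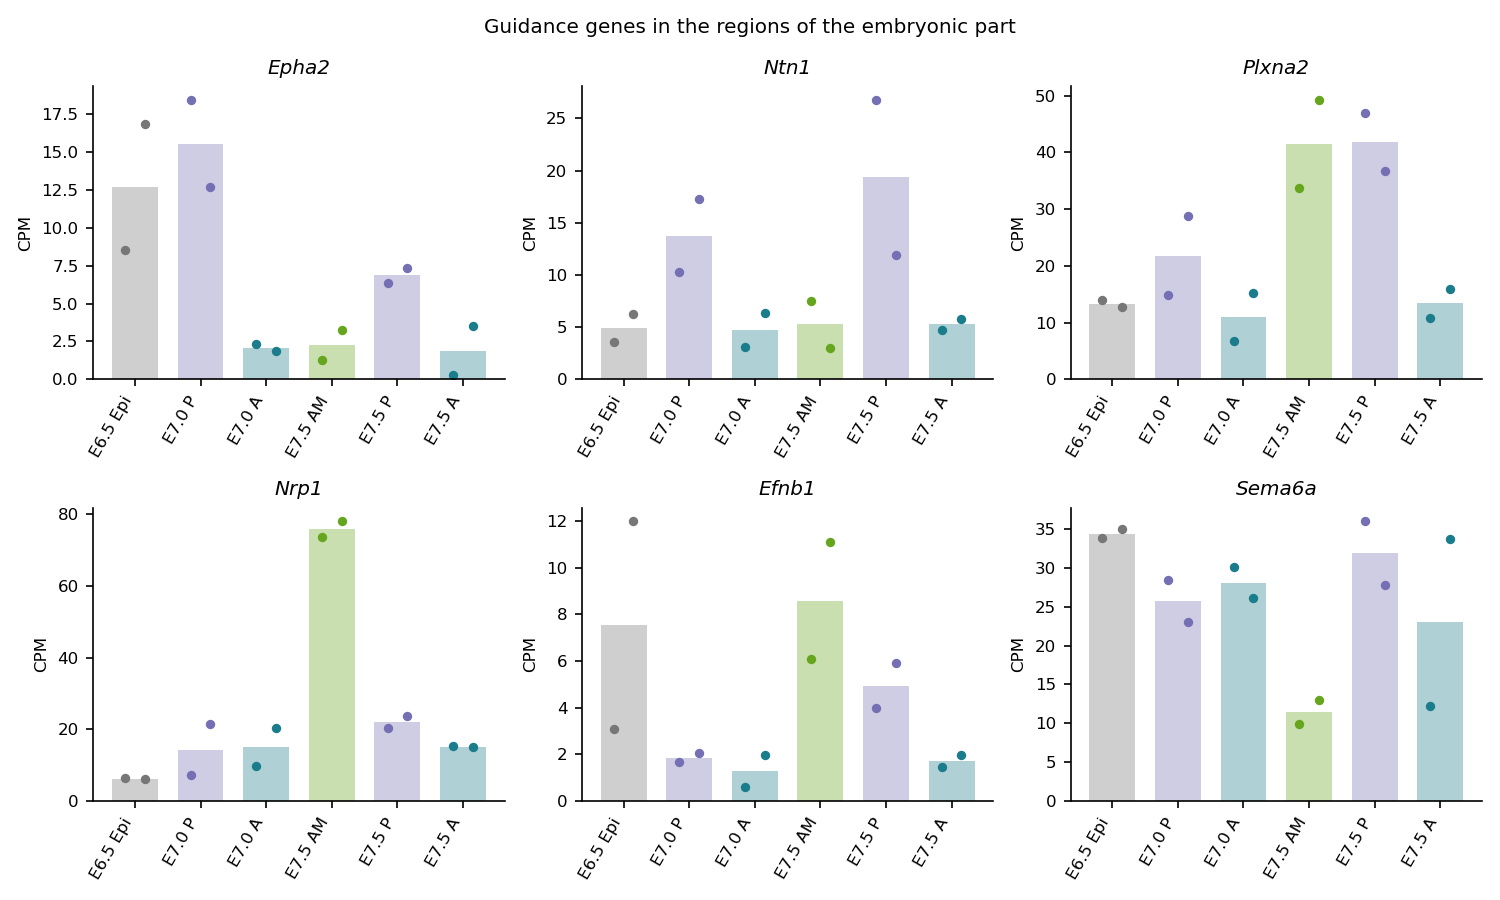
Level in CPM (y axis, linear from 0) of 6 guidance genes in E6.5 Epi and in the regions at E7.0 and E7.5 (x axis, stages in order, AM and P left of A); bars are means of 2 libraries and points are the libraries. Nrp1 stood at 73.7 and 78.0 CPM in AM and at no more than 23.6 CPM in the other groups plotted. No difference between regions passed in the main edgeR fit.

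Across stages, 1 guidance gene rose and 1 fell in the E7.5 regions over E6.5 Epi, against 1.07% and 1.56% of all genes (2.63% in either direction). Nrp1 rose, with 15 to 78.0 CPM in the 6 E7.5 libraries, against 6.28 and 6.14 CPM in Epi (2.24 ± 0.56, adjusted p = 0.0419). Unc5b fell, with 7.14 to 14.4 CPM in the E7.5 libraries, against 22.1 and 26.6 CPM in Epi (-1.12 ± 0.26, adjusted p = 0.0298). Neither pair of groups overlapped, but Nrp1 did not pass without any 1 of the 8 libraries (adjusted p from 0.0609 to 0.39), nor Unc5b without 5 of them (adjusted p up to 0.399). In ExE, 3 guidance genes rose at E7.5 over E6.5 and none fell, against 0.93% and 0.0417% of all genes (0.972% in either direction). Efna5 had 9.07 and 5.44 CPM at E7.5 and 0.72 and 0.987 CPM at E6.5, a rise of 3.11 ± 0.45 (adjusted p = 0.00188). Nrp1 had 38.8 and 19.6 CPM at E7.5 and 2.43 and 1.55 CPM at E6.5 (3.84 ± 0.69, adjusted p = 0.012), and Efna1 had 28.6 and 23.8 CPM at E7.5 and 5.31 and 5.50 CPM at E6.5 (2.28 ± 0.52, adjusted p = 0.0432). Without the first E6.5 ExE library none of the 3 passed (adjusted p = 0.116 for Efna5, 0.213 for Nrp1 and 0.433 for Efna1). The 7 markers of endothelium and blood summed to 93.9 and 94.3 CPM in E7.5 ExE and to 33.8 and 37.1 CPM in E6.5 ExE, and their part in the rise of Nrp1 was not tested.

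The cell table asked how guidance genes change as stem cells become neural cells. In KO cells 37 of the 66 tested guidance genes rose and 15 fell at D8 over D0, against 33.4% and 31.1% of all 14629 genes tested (64.5% in either direction). The median log2 fold change was 1.0 over the guidance genes and 0.05 over all genes. In WT cells 41 rose and 9 fell, against 27.9% and 29.3% of all genes (57.2% in either direction), with medians of 1.81 and -0.05. The 6 markers of naive stem cells summed to 119 to 158 CPM in KO D8, against 3157 to 3296 CPM in KO D0, and to 36.2 and 54.2 CPM in WT D8, against 3207 and 3042 CPM in WT D0.

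Epha2, a receptor of ephrin-A1, had the lowest log2 fold change of the falls in both lines. KO cells had 8.45, 5.04 and 8.48 CPM at D8 and 183, 194 and 207 CPM at D0 (-4.73 ± 0.22, adjusted p = 5.66e-08). WT cells had 3.25 and 5.25 CPM at D8 and 189.9 and 167 CPM at D0 (-5.36 ± 0.28, adjusted p = 1.95e-07). Epha3, Epha5 and Epha7, all receptors of ephrin-A ligands, rose in both lines. In KO cells they rose by 6.24 ± 0.63, 6.19 ± 0.82 and 4.97 ± 0.35 in that order. Epha3 had 34.3 and 129 CPM in WT D8 and 0.494 and 0.434 CPM in WT D0 (7.41 ± 0.76, adjusted p = 1.22e-05). Epha5 had 13.2 and 6.54 CPM in WT D8 and 0.123 and 0.145 CPM in WT D0, and Epha7 had 114 and 116 CPM in WT D8 and 4.57 and 5.06 CPM in WT D0 (4.58 ± 0.42, adjusted p = 5.68e-06). Epha4 was the other EphA receptor that fell in both lines (-2.18 ± 0.15 in KO and -1.13 ± 0.17 in WT). D8 and D0 libraries did not overlap for any of these 5 receptors.

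Promoters of Epha3, Epha5 and Unc5c, which rose by over 5 on the log2 scale in WT cells, and of Epha2 are shown because these genes stand near the ends of the range and have 1 start site in the RefSeq table of GRCm38.p6. Each runs from 250 bases before to 50 bases after that start site, on the gene's strand, with CG dinucleotides in capitals. The Epha5 window lies wholly inside the annotated span of its gene, chr5:84054761-84417818, so its start site is not the outer end of that span. Epha3 lies on the minus strand at chr16:63864126-63864425, Epha5 on the minus strand at chr5:84417333-84417632, Unc5c on the plus strand at chr3:141465314-141465613 and Epha2 on the plus strand at chr4:141300971-141301270.
Epha3: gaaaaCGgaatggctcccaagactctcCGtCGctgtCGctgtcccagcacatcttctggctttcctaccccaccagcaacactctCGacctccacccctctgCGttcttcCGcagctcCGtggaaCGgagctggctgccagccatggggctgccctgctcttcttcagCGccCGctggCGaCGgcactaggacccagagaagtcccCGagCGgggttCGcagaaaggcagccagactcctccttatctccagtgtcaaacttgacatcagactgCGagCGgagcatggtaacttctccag
Epha5: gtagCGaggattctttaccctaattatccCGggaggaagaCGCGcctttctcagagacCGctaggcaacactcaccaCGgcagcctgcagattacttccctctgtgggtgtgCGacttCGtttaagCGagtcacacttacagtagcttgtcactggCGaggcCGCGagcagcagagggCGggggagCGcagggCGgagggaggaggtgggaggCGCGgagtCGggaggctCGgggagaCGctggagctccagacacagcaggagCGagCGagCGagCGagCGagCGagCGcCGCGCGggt
Unc5c: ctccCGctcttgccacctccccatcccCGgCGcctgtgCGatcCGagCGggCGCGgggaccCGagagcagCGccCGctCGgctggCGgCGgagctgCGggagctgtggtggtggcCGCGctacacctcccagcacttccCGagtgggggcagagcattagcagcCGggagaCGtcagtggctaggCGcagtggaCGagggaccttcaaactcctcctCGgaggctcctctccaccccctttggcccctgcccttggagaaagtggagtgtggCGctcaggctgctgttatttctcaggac
Epha2: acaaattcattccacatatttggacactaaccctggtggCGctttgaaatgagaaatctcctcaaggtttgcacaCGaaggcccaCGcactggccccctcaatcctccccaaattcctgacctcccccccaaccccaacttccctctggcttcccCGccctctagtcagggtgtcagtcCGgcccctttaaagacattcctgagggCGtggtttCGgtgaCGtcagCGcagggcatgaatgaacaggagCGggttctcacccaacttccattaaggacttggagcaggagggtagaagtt

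The 3 rising genes held 18, 30 and 24 CG dinucleotides in the order shown, and Epha2 held 10. The median was 19 over the 75 windows found for 59 of the 69 guidance genes and 7 over all 32851 windows. Searched on both strands, the E-box CAGCTG, the octamer ATGCAAAT and the Sox-type letters ACAAAG had no match in these 4 windows. Of all windows, 16.3%, 1.74% and 18.7% held them, and of the 75 guidance windows 12, 0 and 10 did.

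The ephrins rose with the receptors. All 3 ephrin-B genes rose in both lines. Efnb3 had 67.4, 84.0 and 85.4 CPM in KO D8 and 6.99, 9.15 and 9.41 CPM in KO D0 (3.20 ± 0.17, adjusted p = 1.12e-07), and 118 and 99.4 CPM in WT D8 and 7.90 and 7.23 CPM in WT D0 (3.84 ± 0.22, adjusted p = 3.13e-07). Efnb1 had 67.6 and 209.6 CPM in WT D8, so its WT libraries differed widely, and 6.42 and 9.84 CPM in WT D0 (4.10 ± 0.46, adjusted p = 2.21e-05). Of the 5 ephrin-A genes, Efna2 and Efna5 rose in both lines, and Efna3 fell in KO cells (-1.95 ± 0.39, adjusted p = 0.00113) and did not pass in WT cells (-0.61 ± 0.47, adjusted p = 0.296). Among EphB receptors Ephb1, Ephb2 and Ephb6 rose in both lines, and Ephb3 fell in WT cells (-0.82). The Ephb3 call was kept in 1 of the 4 fits that left out a WT library and was lost under total counts. Over all alternatives Ephb3 ran from -0.966 to -0.516. Ephb4 rose in KO cells (1.70 ± 0.25, adjusted p = 0.000135) and missed the threshold in WT cells (0.71 ± 0.30, adjusted p = 0.0619).

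Among Slit and netrin receptors, Robo2 and Unc5c stood near 0 in stem cells and rose in both lines. Robo2 had 21.1, 9.66 and 26.6 CPM in KO D8 and 0.297, 0.457 and 0.395 CPM in KO D0 (5.57 ± 0.46, adjusted p = 1.90e-06), and 36.8 and 27.8 CPM in WT D8 and 0.123 and 0.145 CPM in WT D0 (7.77 ± 0.67, adjusted p = 3.66e-06). Unc5c had 6.36 and 9.43 CPM in WT D8 and 0.123 and 0.145 CPM in WT D0 (5.75 ± 0.82, adjusted p = 0.000129). Unc5d, another netrin receptor, did not pass in KO cells (1.16 ± 0.65, adjusted p = 0.135) and rose in WT cells (3.90 ± 0.85, adjusted p = 0.00229). The ligands Slit1 and Slit2 rose in both lines, and Slit3 passed in neither. Robo4, which is known from blood vessels, fell in both (-2.32 ± 0.71 in KO and -2.53 ± 0.90 in WT), though in WT it passed without 1 of the 4 libraries only, with adjusted p up to 0.233. Ntn1 fell in KO cells, with 51.0, 25.9 and 47.5 CPM at D8 and 117, 161 and 124 CPM at D0 (-1.69 ± 0.41, adjusted p = 0.0036). In WT cells it had 181 and 46.1 CPM at D8 and 97.8 and 84.3 CPM at D0 and did not pass (0.31 ± 0.48, adjusted p = 0.603).

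Semaphorins moved in both directions. In WT cells 4 of 7 class 3 semaphorins rose and 1 fell, and of the 13 others 7 rose and 4 fell. Sema4c had 85.4 and 89.4 CPM in WT D8 and 8.15 and 3.47 CPM in WT D0 (3.89 ± 0.31, adjusted p = 2.05e-06), and Sema6a had 38.9 and 79.5 CPM in WT D8 and 2.35 and 1.01 CPM in WT D0 (5.10 ± 0.48, adjusted p = 6.55e-06). Going down, Sema4b had 23.2 and 32.3 CPM in WT D8 and 149.7 and 117 CPM in WT D0 (-2.26 ± 0.24, adjusted p = 1.49e-05). Sema4d, Sema4f, Sema4a and Sema3b fell as well, though Sema4a and Sema3b each passed in 2 of the 4 fits that left out a WT library. Sema4a and Sema4f, like Sema4b and Sema4d, fell in KO cells too. Plexins were called in 1 direction in WT cells, where 6 of 9 tested rose and none fell, against 27.9% and 29.3% of all genes. In KO cells 5 rose and 1, Plxna1, fell, against 33.4% and 31.1%. The KO calls of Plxna2 and Plxna3 were lost in the fit of the compared groups alone. Of the 6 fits that left out a KO library, Plxna2 passed in 2 and Plxna3 in 3 (adjusted p up to 0.199 and 0.123 over all alternatives). The WT calls of Plxna2, Plxna4 and Plxnd1 depended on which library was left out. Over all alternatives their log2 fold changes in WT ran from 0.94 to 1.75, 0.893 to 2.377 and 0.7215 to 1.171 in that order. Plxnb1, the Sema4d receptor, had 145 CPM in both WT D8 libraries and 22.4 and 18.8 CPM in WT D0 (2.81 ± 0.24, adjusted p = 3.78e-06), while Sema4d itself fell (-1.97 ± 0.30). Both neuropilins rose in both lines, but Nrp2 passed in 2 of 6 fits that left out a KO library (adjusted p up to 0.109 over all alternatives) and in 2 of 4 that left out a WT library (up to 0.0757).

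Neighbouring genes of 1 family were not always called alike. Sema3d, Sema3a, Sema3e and Sema3c lie between 12.4 and 17.7 Mb on chromosome 5, and all 4 rose in KO cells (4.61 ± 1.04, 3.94 ± 0.64, 2.61 ± 0.53 and 3.07 ± 0.37 in that order). In WT cells Sema3e was the one that did not pass (0.10 ± 0.61, adjusted p = 0.901). Sema3b and Sema3f lie within 0.12 Mb on chromosome 9, and in WT cells Sema3b fell (-1.63 ± 0.45) and Sema3f rose (2.89 ± 0.48). The Sema3b call was kept in 2 of the 4 fits that left out a WT library, and over all alternatives it ran from -2.262 to -1.112. Robo3 and Robo4 are adjacent on the same chromosome, and in both lines Robo3 rose and Robo4 fell. The deposited counts do not say whether reads shared by neighbouring or overlapping genes were split.

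**Figure D3:**
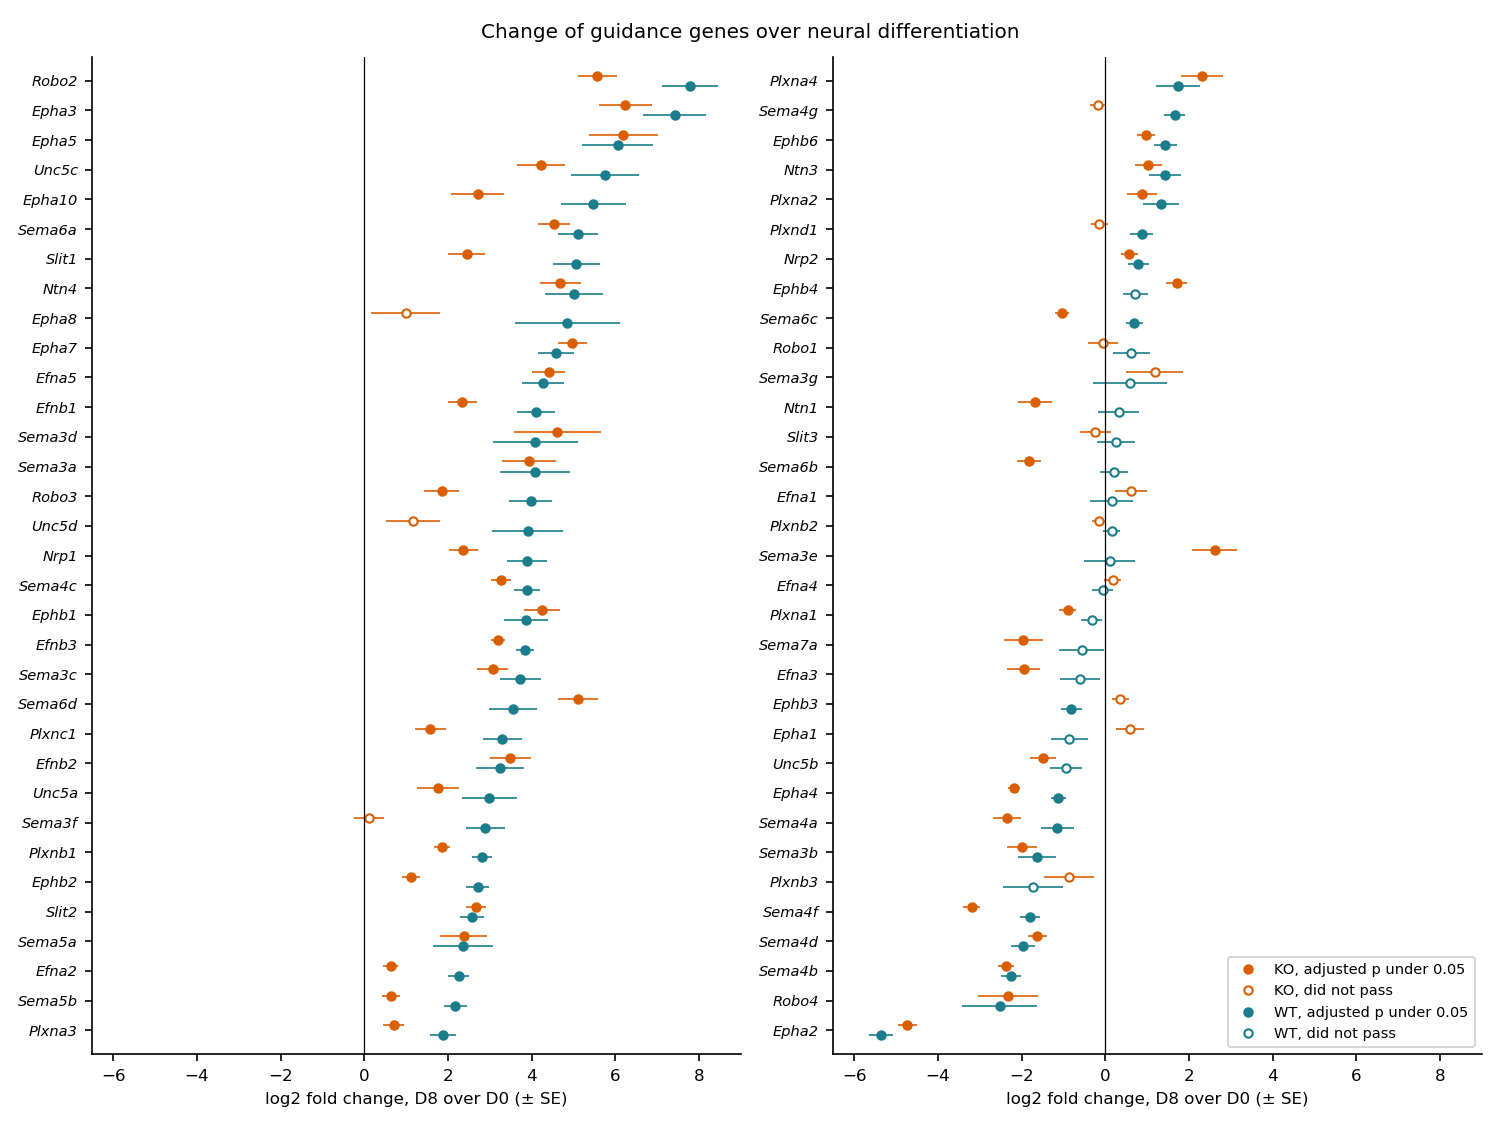
Log2 fold change of D8 over D0 with its standard error (x axis) for each of the 66 tested guidance genes (y axis, ordered by WT), KO in orange and WT in blue, filled where the adjusted p was under 0.05 and open where it was not. Of 37 rises in KO cells and 41 in WT cells 35 were shared. Sema6c was called in opposite directions, and its WT rise did not pass without the second WT D0 library.

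Of the rises, 35 were shared, 94.6% of the 37 in KO and 85.4% of the 41 in WT cells. Of the falls, 8 were shared, 53.3% of the 15 in KO and 88.9% of the 9 in WT cells. Sharing over all genes was not computed. Of all genes, 33.4% rose and 31.1% fell in KO cells, and 27.9% rose and 29.3% fell in WT cells. Sema6c alone was called in opposite directions. Its WT rise did not pass without the second WT D0 library, and over all alternatives it ran from 0.599 to 0.987 on the log2 scale. Among the 48 partners and effectors, 25 rose and 9 fell in KO cells and 32 rose and 7 fell in WT cells. Crmp1 (4.72 ± 0.23 in KO, 5.61 ± 0.29 in WT) and Dpysl4 (4.64 ± 0.24 in KO, 6.48 ± 0.32 in WT), which relay semaphorin signals, rose in both. Rnd1, a small GTPase that binds plexins, fell in both (-3.0 ± 0.23 in KO and -3.28 ± 0.31 in WT).

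In undifferentiated cells none of the 66 guidance genes passed between KO and WT, against 0.273% of all genes called (0.0889% lower), and the median log2 fold change was 0.18 over the guidance genes and 0.03 over all genes. At an unadjusted p under 0.05 there were 12, against 2089 of all 14629 genes. DESeq2 called 4 guidance genes, which were Efna2, Plxnd1, Sema4f and Sema4g, all higher in KO. Sema4g, which had the smallest p in edgeR, had 20.7, 18.1 and 24.0 CPM in KO D0 and 10.4 CPM in both WT D0 libraries (1.01 ± 0.23, adjusted p = 0.0936). Plxna4, a co-receptor of class 3 semaphorins, had 0.446, 0.457 and 0.79 CPM in KO D0 and 2.10 and 2.46 CPM in WT D0 (-1.93 ± 0.56, adjusted p = 0.161). Neither gene overlapped between the lines. KO libraries also carried shifts of whole chromosomes, with median log2 fold changes at D0 of 0.47 on chromosome 14, 0.30 on chromosome 6, 0.20 on chromosome 11, -0.15 on chromosome 8 and -0.19 on the X chromosome. Plxnd1, Sema4f, Plxna4, Plxna1, Ephb6 and Epha1 lie on chromosome 6, Sema3g on chromosome 14, and Efnb3, Ntn1 and Slit3 on chromosome 11. Efnb2, Nrp1 and Unc5d lie on chromosome 8, and Efnb1, Plxna3 and Plxnb3 on X. A difference between KO and WT and any other difference between the 2 lines cannot be told apart.

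After differentiation, 17 of the 66 guidance genes fell and 2 rose in KO cells against WT cells, against 8.24% and 12.5% of all genes. The median log2 fold change was -0.58 over the guidance genes and 0.02 over all genes. Without the first WT library 9 fell and 2 rose. Falls came from all of the families except the neuropilins and the Unc5 receptors. The 6 neuron markers, each detected in every D8 library, summed to 205, 428 and 440 CPM in KO and 1504 and 1034 CPM in WT, and the 6 neural progenitor markers to 463, 577 and 668 CPM in KO and 1030 and 925 CPM in WT. The 6 mesenchyme markers summed to 135, 138 and 215 CPM in KO and 82.9 and 39.3 CPM in WT. The part of these markers in the guidance genes' differences was not tested.

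Semaphorins and plexins held 8 of the 17 falls. Sema6c had 14.7, 17.5 and 16.3 CPM in KO and 50.1 and 44.0 CPM in WT (-1.54 ± 0.19, adjusted p = 0.00119). Sema5b had 42.8, 23.7 and 38.6 CPM in KO and 97.4 and 98.2 CPM in WT (-1.48 ± 0.23, adjusted p = 0.00261). Plxna3, a receptor that works with neuropilins, had 36.2, 18.3 and 24.0 CPM in KO and 81.7 and 63.6 CPM in WT (-1.47 ± 0.27, adjusted p = 0.00463). Each of the KO libraries lay below each of the WT libraries for these 3 genes, and all 3 passed without any 1 of the 5 D8 libraries. Sema3f had 6.55, 5.55 and 8.78 CPM in KO and 37.7 and 14.4 CPM in WT (-1.89 ± 0.39, adjusted p = 0.00772), and without the first WT library it did not pass (-1.14, adjusted p = 0.101). Plxnb1 had 95.6, 54.9 and 77.6 CPM in KO and 145 CPM in both WT libraries (-0.93 ± 0.20, adjusted p = 0.00995), also lost without that library (-1.03, adjusted p = 0.0509). Plxnc1 (-1.52 ± 0.37), Sema4g (-0.82 ± 0.21) and Sema6b (-1.09 ± 0.32) were the other falls. All 3 were lost in the fit of the compared groups alone, and Sema6b passed in 2 of the 5 fits that left out a D8 library. Sema3d, Plxna4 and Nrp1 did not pass in the main fit. Plxna4 was called lower in KO by DESeq2 (-1.43, adjusted p = 0.0363). In edgeR it was also called without a filter (-1.40, adjusted p = 0.0484) and with the chromosome offset (-1.79, adjusted p = 0.0215).

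Of the 3 Slits and 4 Robos, Slit1 and Robo3 fell, and so did Ntn1 among the netrins. Robo3, which steers commissural axons across the midline, had 4.23, 3.60 and 4.44 CPM in KO and 25.4 and 15 CPM in WT (-2.30 ± 0.38, adjusted p = 0.00331), and it passed without any 1 library. Slit1 had 8.98, 4.42 and 9.79 CPM in KO and 54.7 and 22.5 CPM in WT (-2.31 ± 0.40, adjusted p = 0.00366), and without the first WT library it stood at -1.63 and did not pass. The KO and WT libraries of both genes did not overlap. Ntn1 had 51.0, 25.9 and 47.5 CPM in KO and 181 and 46.1 CPM in WT (-1.45 ± 0.44, adjusted p = 0.0395). The groups overlapped, with the second WT library inside the KO range. Ntn1 passed in 1 of the 5 fits that left out a D8 library, and over all alternatives its log2 fold change ran from -2.19 to -0.24, with adjusted p up to 0.681.

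Eph receptors were called in both directions, and the called ephrins fell. Ephb2 had 91.8, 52.8 and 79.2 CPM in KO and 197 and 141 CPM in WT (-1.18 ± 0.23, adjusted p = 0.00605, and adjusted p = 0.058 without the first WT library). Epha10, an Eph receptor without kinase activity, had 6.76, 4.52 and 5.25 CPM in KO and 66.5 and 13 CPM in WT (-2.84 ± 0.54, adjusted p = 0.0056). Without the first WT library Epha10 stood at -1.33 (adjusted p = 0.108). Efnb1 had 43.1, 44.7 and 52.1 CPM in KO and 67.6 and 209.6 CPM in WT (-1.57 ± 0.35, adjusted p = 0.0112), and without the second WT library it stood at -0.59 (adjusted p = 0.147). Epha4 (-0.69 ± 0.16), Epha3 (-1.56 ± 0.43) and Efna2 (-0.66 ± 0.20) fell as well. In Epha3, KO and WT libraries overlapped, and the second WT library, at 129 CPM, was the high one. Epha3 and Efna2 each passed in 2 of the 5 fits that left out a D8 library. Over all alternatives Epha3 ran from -2.31 to -0.37 (adjusted p up to 0.538) and Efna2 had adjusted p up to 0.147, and Epha4 was lost without the second WT library (adjusted p up to 0.0904).

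Ephb3 and Epha1 were the 2 rises. Ephb3 had 53.0, 63.4 and 92.5 CPM in KO and 26.8 and 25.5 CPM in WT (1.42 ± 0.24, adjusted p = 0.0035), with no overlap, and it passed without any 1 library. Epha1 had 6.02, 5.96 and 8.58 CPM in KO and 2.81 and 1.72 CPM in WT (1.61 ± 0.41, adjusted p = 0.0203). It lies on chromosome 6, whose genes had a median log2 fold change of 0.45 at D8, and with that median subtracted it stood at 1.17 and did not pass (adjusted p = 0.0665). Of the 48 partners 22 fell and 2 rose in KO cells, among them Dpysl5 (-1.36 ± 0.17), Rgmb (-1.61 ± 0.24), Kalrn (-1.23 ± 0.19) and Crmp1 (-1.25 ± 0.20) as falls and Mical2 (2.02 ± 0.43) and Flrt3 (0.68 ± 0.18) as rises.

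**Figure D4:**
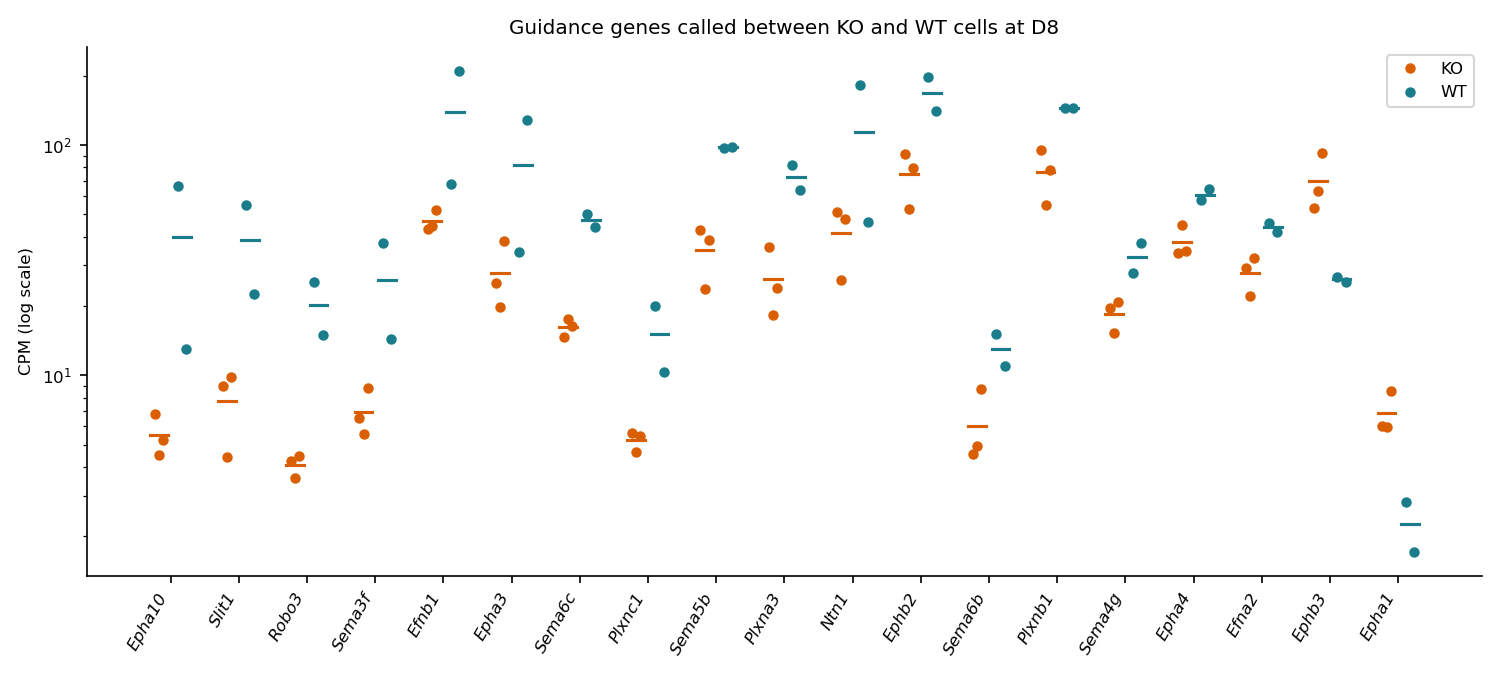
Level in CPM (y axis, log scale) at D8 of the 19 guidance genes called between KO and WT cells (x axis, ordered by log2 fold change), KO in orange left of WT in blue; points are libraries and lines are group means. The genes are plotted because they were called for this difference, and the KO and WT libraries of Epha3 and Ntn1 overlapped.

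The last comparison tested whether the D8 over D0 change itself differed between KO and WT cells. It was lower in KO cells for 9 guidance genes and higher for none, against 2.76% and 3% of all genes, with medians of -0.57 over the guidance genes and 0.01 over all genes. Sema6c fell in KO cells (-1.04 ± 0.17), with 14.7, 17.5 and 16.3 CPM at D8 and 28.1, 31.9 and 39.6 CPM at D0. It rose in WT cells (0.69 ± 0.21), with 50.1 and 44.0 CPM at D8 and 32.1 and 26.2 CPM at D0. The difference between the changes was -1.73 ± 0.27 (adjusted p = 0.011). Sema3f (-2.78 ± 0.59, adjusted p = 0.0279) and Sema4g (-1.83 ± 0.31, adjusted p = 0.0147) did not pass in KO cells (0.11 ± 0.36 and -0.18 ± 0.19) and rose in WT cells. Sema6b (-2.03 ± 0.45, adjusted p = 0.0306) fell in KO cells and did not pass in WT cells.

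Ephb2 (-1.59 ± 0.34, adjusted p = 0.0275), Efna2 (-1.63 ± 0.31, adjusted p = 0.0205) and Sema5b (-1.55 ± 0.34, adjusted p = 0.0308) rose in both lines, less in KO cells. Epha4 (-1.05 ± 0.22, adjusted p = 0.0279) and Sema4f (-1.40 ± 0.32, adjusted p = 0.0332) fell in both, further in KO cells. A higher level in KO D0 enters this difference with a negative sign, and Efna2 had 16.5, 16.6 and 20.9 CPM in KO D0 and 8.03 and 10.4 CPM in WT D0. None of the 9 kept its call whichever library was left out: without the second WT D0 library none passed (adjusted p from 0.0678 to 0.135), and Sema6c passed in the other 9 of 10 such fits. Of the 48 partners 12 were lower in this comparison, with Dpysl5 (-2.02 ± 0.28, adjusted p = 0.00942) and Srgap3, a partner of Robo receptors (-2.71 ± 0.46, adjusted p = 0.0155), at the smallest p.

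**Figure D5:**
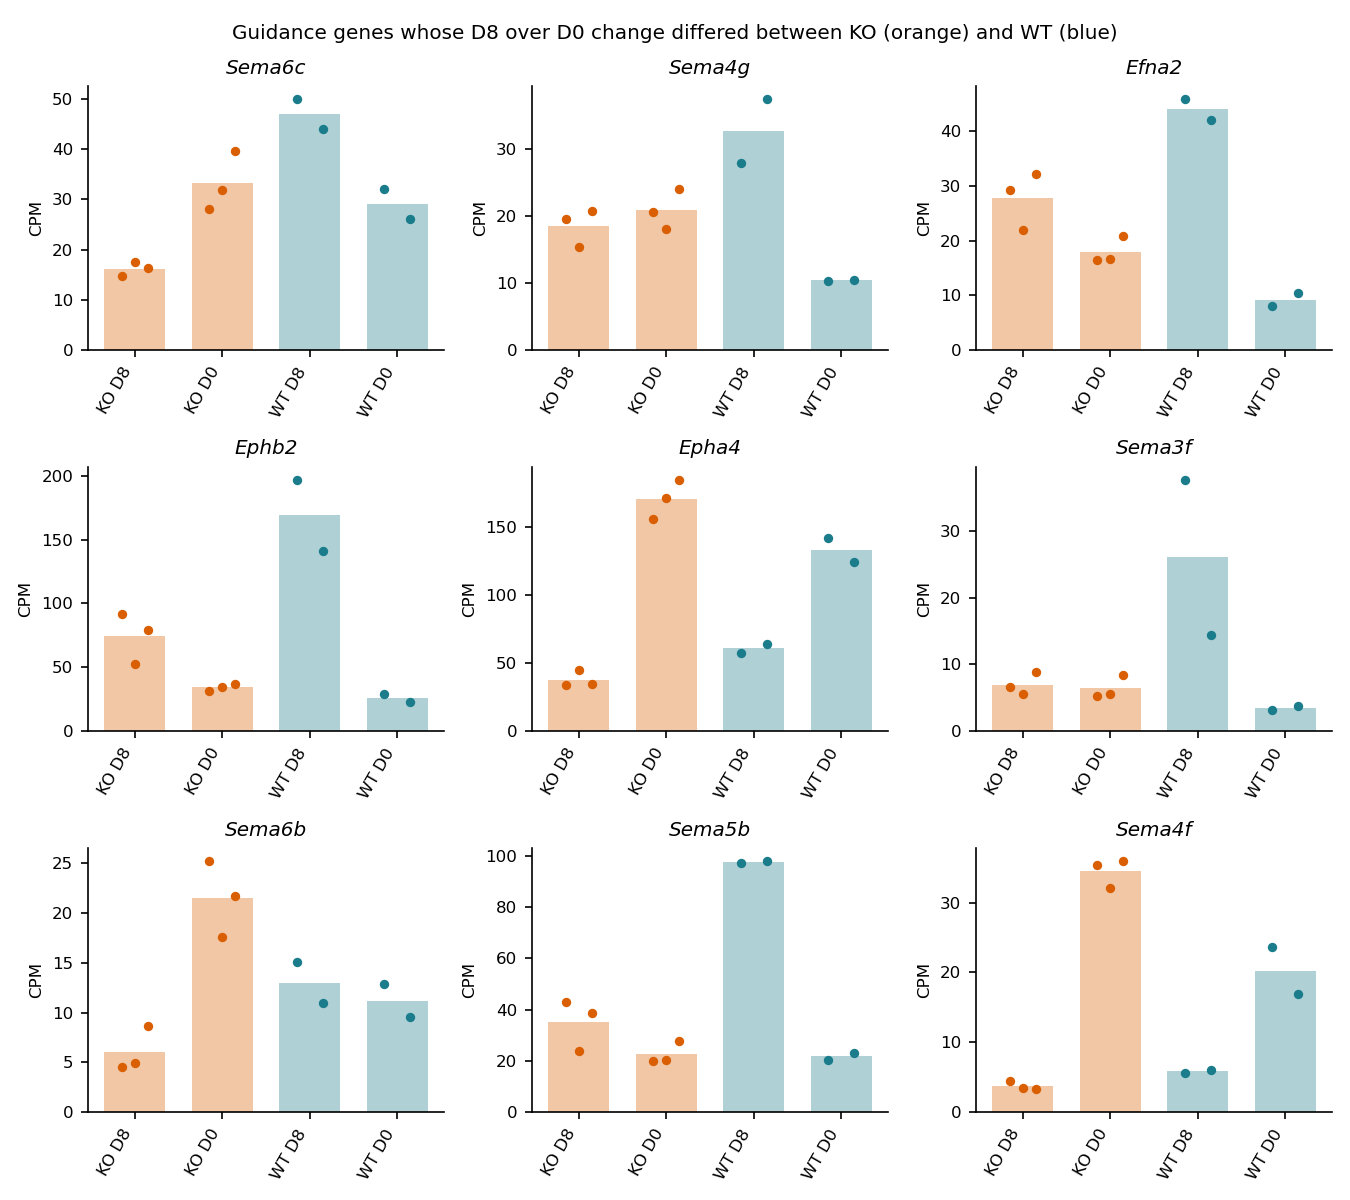
Level in CPM (y axis, linear from 0) of the 9 guidance genes whose D8 over D0 change was lower in KO than in WT cells, with D8 left of D0 and KO (orange) left of WT (blue) on the x axis; bars are group means and points are libraries. Sema6c was lower at D8 than at D0 in KO cells and higher at D8 than at D0 in WT cells.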

How the data were processed

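The authors deposited tables of raw read counts per gene, 1 for embryos and 1 for cells, and 6 embryo columns that matched no sample's labels were not used. CASAVA 1.8, BWA, TopHat2 2.0.9 and the mm10 build are listed, with no roles, per the submitters' processing notes. No source used here gives the counting tool, the annotation or the strand setting, and overlapping genes and antisense pairs such as Plxna4 and Plxna4os1 may share counts. From the counts, genes were filtered with edgeR's filterByExpr (minimum count 10, total 15), scaled by TMM and tested with edgeR 4.0.16's robust quasi-likelihood test in R 4.3.3, 1 fit per table over all its groups. P-values were adjusted by Benjamini-Hochberg over all genes tested. DESeq2 1.42.0, other scalings, no filter, a replicate block, the compared groups alone, a chromosome offset and left-out libraries were the alternatives. The test was checked on simulated counts. The guidance genes, partners and markers were chosen with earlier results of these data known. Full statistics were planned, per comparison, for up to 10 called genes in each direction with the smallest p, for up to 3 with the largest changes among those that did not pass (mean log2 CPM over 1), and for the highest gene of each family; other guidance genes named were chosen after their values were seen.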

Additional observations from a re-analysis of the deposited data

Results flagged for a closer look

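The change from D0 to D8 differed between KO and WT cells, by the test of that difference itself, in 9 guidance genes, against 5.76% of all genes. Leaving out 1 library gave 0 to 19 such genes, and none of the 9 kept its call in every one of these fits. On the log2 scale, KO minus WT, it was -1.73 for Sema6c, -1.83 for Sema4g, -1.63 for Efna2, -1.59 for Ephb2, -1.05 for Epha4, -2.78 for Sema3f, -2.03 for Sema6b, -1.55 for Sema5b and -1.40 for Sema4f.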

How the results depend on the processing

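No called guidance gene turned its direction under any alternative run. Nor did the up to 3 genes per comparison with the largest changes among those that did not pass. The direction of other genes was not checked in this way. Without a low-count filter 15 guidance genes were called in ExE at E7.0, 2 between P and A at E7.0, 1 between P and A and 3 between AM and A at E7.5, 2 between AM and P, 12 between E7.5 regions and Epi, and 8 between E7.5 and E6.5 ExE. DESeq2 called 1 in P over A at E7.5, 3 in AM over A, 12 in E7.5 regions over Epi, 7 in E7.5 over E6.5 ExE, 4 in KO over WT at D0, and 18 in the KO minus WT change. Fits of the compared groups alone called 16 at E6.5, 1 in AM over A, 5 in E7.5 regions over Epi, 7 in E7.5 over E6.5 ExE, 11 at D0 and 9 at D8 in KO against WT. Counts over all genes moved too: in these last fits they were 3609 of 14403 at E6.5 (1286 in the shared fit), 28 (226), 506 (379), 440 (140), and 2064 (40) and 746 (3039) of 14629. A replicate block called 3 in AM over A and 5 in E7.5 regions over Epi. The labels do not say that shared replicate numbers pair samples. In the one check over 3 pairs, KO D8 with KO D0, the lowest correlation of same-numbered libraries was -0.0462. Embryo groups have 2 pairs each, too few for that check, and their correlations ran from -0.118 (E7.5 with E7.0 ExE) to 0.668 (AM with P at E7.5), with 0.464 for AM with A. Leaving out 1 library gave 3 to 6 calls at E6.5, 7 to 13 at E7.0 and 3 to 17 at E7.5 in ExE, 0 to 1 in P over A at E7.5, 0 to 3 in E7.5 regions over Epi, 0 to 2 in E7.5 over E6.5 ExE, 11 to 27 in KO against WT at D8 and 0 to 19 in the KO minus WT change. Counts over all genes moved in the embryo fits too, and the causes were not tested. Scaling by total counts moved the share of calls over all genes that were higher to 63.2% at E6.5 (41.3% with TMM), 69.7% at E7.0 (55.1%) and 44.5% at E7.5 (62.9%) in ExE, 50% in P over A at E7.5 (85.3%), 90.9% in AM over P (37.5%), 69% in E7.5 regions over Epi (40.6%), where 3 guidance genes rose and none fell, 62.5% in WT D8 over D0 (48.8%), 37.7% in KO against WT at D8 (60.3%) and 27% in the KO minus WT change (52.1%). DESeq2 size factors gave 48.1% and 39.6% in these last comparisons, and the chromosome offset 44.4% in KO against WT at D0 (67.5%). With 2 or 3 libraries a group, small changes of low genes were not detectable at this depth.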
